A study of Mus musculus with 9 samples.

Results

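The genes described here encode the steps that take up glucose, split it to pyruvate (glycolysis), pass pyruvate to lactate, and send glucose phosphate through the pentose phosphate pathway. Glycolysis yields ATP and building blocks in the cytosol. The oxidative branch of the pentose phosphate pathway yields NADPH, which phagocytes use for their oxidative burst and which every dividing cell uses for lipid synthesis, and the non-oxidative branch links pentoses for nucleotides back to glycolysis. Many steps have several isoenzymes from separate genes, so that 1 step can be carried by different transcripts in different cells.

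The list held 37 genes, taken by the pathway step they serve, and 32 of them had a probe set that the array annotation gave to that gene alone, of 19937 genes measured in that way. *Gpi1*, *Pfkfb1*, *Eno1* and *G6pdx* had no such probe set in the annotation used and were not analysed here. *Gapdh* was on 11 probe sets that each named other genes as well, and it was also not analysed here.

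RNA was taken from steady-state bone marrow of C57Bl/6 mice aged 8 weeks, with no treatment. Ly6Chi CD115+ cells, negative for lineage markers, MHC class II and cKit according to the study's sorting scheme, were divided by both remaining surface proteins. R1 cells lacked them (Flt3-CD11c-), R2 cells carried Flt3 alone (Flt3+CD11c-) and R3 cells carried the pair (Flt3+CD11c+). The study treats R1 and R2 as monocytes and R3 as dendritic cell precursors (pre-DCs), and the question asked here is how the transcripts of sugar breakdown differ among them. Each population was measured on 3 arrays, 1 per date in the titles, and the replicate number stands for that date. No source used here says whether mice were pooled for an array. The p-values therefore rest on the spread among 3 arrays per population, and part of that spread may be technical.

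Values are log2 of the deposited array intensity, with array medians of 58.0 to 64.7 on the linear scale. Probe sets differ in brightness for the same amount of RNA, so levels were compared between populations for 1 gene and never between genes. A gene is said to have risen or fallen only where limma gave an adjusted p under 0.05 over all genes. An array compares relative amounts of RNA, and in a sorted population fewer cells expressing a gene and less of its RNA per cell cannot be told apart.

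The sort labels matched the marker genes in R3, while *Flt3* itself was not called between R2 and R1 at this array number. All 8 dendritic precursor markers rose in R3 against either monocyte population. *Flt3* was 3.13 log2 units higher in R3 than in R2, and 0.68 higher in R2 than in R1 without a call (adjusted p = 0.281). In R2 against R1, 1 of these 8 markers was called higher, 7 had a difference above 0 and 5 had an unadjusted limma p under 0.05. The share of all genes under that unadjusted limit was not counted. Of the 7 monocyte markers measured, 4 fell in R3 against R2 and 5 fell against R1. Their summed intensity was 16847 to 18300 in R1, 14959 to 15893 in R2 and 8415 to 9643 in R3. The 4 erythroid and 6 B cell markers gave no call in any comparison, and of the 6 T and NK cell markers 1, *Nkg7*, was called (lower in R3). All 5 primary granule genes (*Mpo*, *Elane*, *Prtn3*, *Ctsg* and *Ms4a3*) fell in R3, with sums of 7123 to 11849 in R1, 12593 to 17189 in R2 and 841 to 1134 in R3. Neutrophil markers spread most within R3, where their sum ran from 1477 to 16013, and none of 8 was called. The part of these other cell markers in the results given here was not tested.

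R3 pre-DCs differed from both monocyte populations in a split way. Against R2, 6 of 32 pathway genes rose in R3 and 8 fell, where 4.85% of all genes rose and 4.69% fell. Against R1, 5 rose and 12 fell, where 6.49% of all genes rose and 7.02% fell. Most of these genes are bright, and among the brighter 9969 genes, which held 30 of the 32, the shares were 8.73% and 8.72% against R2 and 11.7% and 13% against R1. The median difference of the pathway genes was -0.13 on the log2 scale against R2 (all genes -0.01) and -0.24 against R1 (all genes -0.02). Both comparisons share the R3 arrays, so the calls in one are not independent of those in the other. The list was chosen with earlier results of these data known, so these shares describe it and are no test of it.

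The genes that fell in R3 against both R2 and R1 were *Hk3*, *Aldoa*, *Tpi1*, *Pgk1*, *Pgam1*, *Pkm*, *Ldhb* and *Pgd*, and those that rose against both were *Slc2a3*, *Pfkp*, *Aldoc*, *Gpd2* and *Pgls*. *Slc2a6*, *Pfkfb2*, *Pfkfb4* and *Rpe* fell against R1 without a call against R2, and *Pfkfb3* rose against R2 without a call against R1. The other 14 genes were called in neither comparison. In 6 genes a call came with a difference of at least 2-fold in both comparisons, and these were *Hk3*, *Ldhb*, *Pgd* and *Aldoa* among those that fell, and *Aldoc* and *Slc2a3* among those that rose. The lower side of some was dim, with means of 5.86 in R3 for *Hk3* and *Ldhb*. *Slc2a3* was at 6.01 in R1 and 5.90 in R2, and *Aldoc* at 5.93 in R1. The dimmest 25% of genes ended at 4.85. How far background signal narrows these fold differences was not tested.

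**Figure D1:**
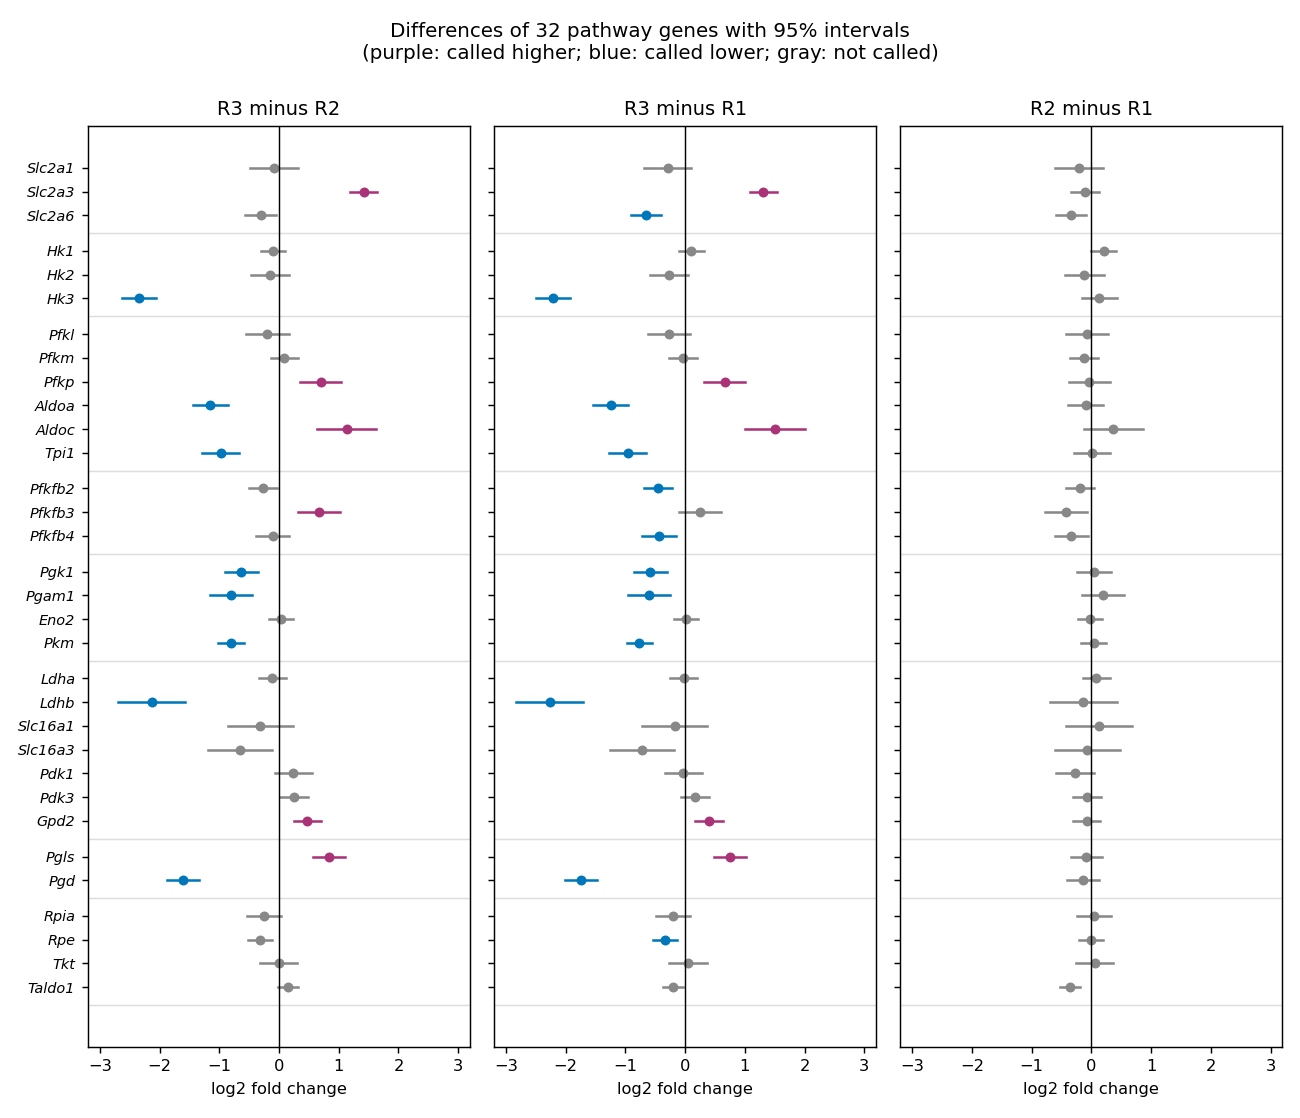
Each point is the log2 fold change of 1 of the 32 pathway genes and each line its 95% confidence interval, for R3 minus R2, R3 minus R1 and R2 minus R1, with genes ordered by their step from glucose uptake at the top to the non-oxidative pentose phosphate branch at the bottom. Blue genes fell, purple genes rose and gray genes were not called; the 8 genes that fell against both monocyte populations lie to the left in the first and second panels, while no gene is colored in the third.

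The same array values, read without a fit, divided in the same way, which is no separate support for the calls. Against R2, all 3 R3 arrays lay above all R2 arrays for 7 genes and below them for 13, and against R1 the counts were 5 and 15. Over all genes the arrays of the compared populations did not overlap, in either direction, in 24.8% for R3 against R2 and 24.5% for R3 against R1. The difference had the same sign on all 3 dates for 10 genes that were higher and 17 that were lower in R3 than in R2, and for 6 and 17 against R1. Over all genes these shares were 19.5% higher and 20.1% lower against R2, and 17% and 20.6% against R1.

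**Figure D2:**
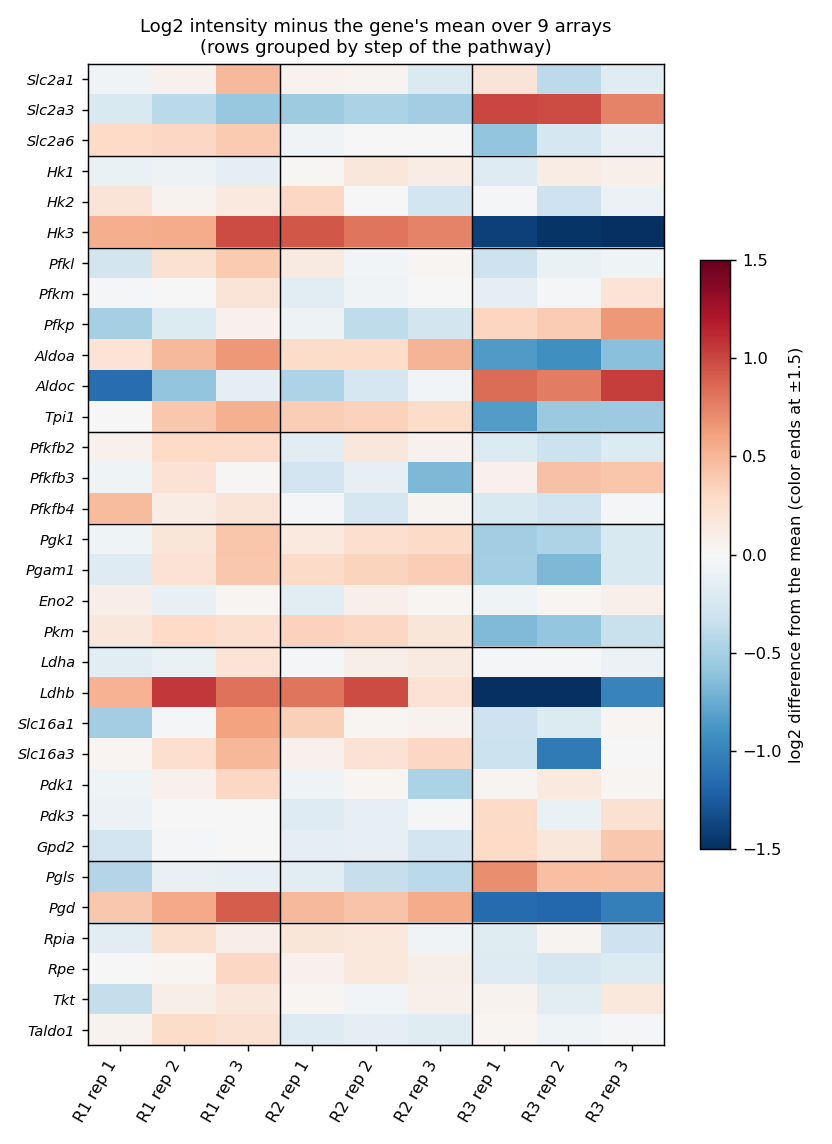
Color gives the log2 intensity of each gene (rows, grouped by step of the pathway) on each array (columns) minus that gene's mean over the 9 arrays, with color ending at ±1.5. The 3 R3 columns stand apart from the R1 and R2 columns in the rows of *Hk3*, *Aldoa*, *Ldhb* and *Pgd*, all low in R3, and of *Slc2a3* and *Aldoc*, both high in R3.

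Promoters were read for the genes that moved together and for pairs of genes that moved in opposite directions, because hypoxia-inducible factors are known to act on many glycolytic genes through a short core. The sequences are the 250 bases before the RefSeq start site (GRCm38.p6), 5′ to 3′ on the gene's strand, and capitals mark the hypoxia response cores ACGTG and GCGTG on either strand. For genes with several starts the one with most cores is shown. *Hk3* (chr13:55021386-55021635, minus strand), *Aldoa* (chr7:126799255-126799504, minus strand), *Pgk1* (chrX:106186850-106187099, plus strand) and *Pgd* (chr4:149166706-149166955, minus strand) fell in R3, and *Aldoc* (chr11:78322823-78323072, plus strand) and *Pgls* (chr8:71591934-71592183, plus strand) rose.
Hk3: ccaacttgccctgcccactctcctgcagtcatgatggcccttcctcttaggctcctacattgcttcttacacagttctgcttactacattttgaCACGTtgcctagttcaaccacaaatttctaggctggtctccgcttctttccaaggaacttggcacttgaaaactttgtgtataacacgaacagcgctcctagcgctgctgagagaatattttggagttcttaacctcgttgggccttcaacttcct
Aldoa: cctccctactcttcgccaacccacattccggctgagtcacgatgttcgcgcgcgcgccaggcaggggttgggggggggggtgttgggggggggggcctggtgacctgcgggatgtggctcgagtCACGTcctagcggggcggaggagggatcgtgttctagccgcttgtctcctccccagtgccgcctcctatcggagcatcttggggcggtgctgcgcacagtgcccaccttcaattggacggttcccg
Pgk1: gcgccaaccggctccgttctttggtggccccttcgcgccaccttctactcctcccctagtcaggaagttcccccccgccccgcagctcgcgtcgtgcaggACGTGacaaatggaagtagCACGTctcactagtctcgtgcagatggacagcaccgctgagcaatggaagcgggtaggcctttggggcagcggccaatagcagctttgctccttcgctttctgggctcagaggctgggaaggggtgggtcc
Pgd: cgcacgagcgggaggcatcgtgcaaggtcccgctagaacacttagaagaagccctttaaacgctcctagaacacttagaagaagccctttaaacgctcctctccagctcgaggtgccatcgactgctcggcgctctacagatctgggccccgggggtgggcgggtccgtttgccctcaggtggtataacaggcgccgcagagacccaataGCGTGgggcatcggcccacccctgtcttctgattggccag
Aldoc: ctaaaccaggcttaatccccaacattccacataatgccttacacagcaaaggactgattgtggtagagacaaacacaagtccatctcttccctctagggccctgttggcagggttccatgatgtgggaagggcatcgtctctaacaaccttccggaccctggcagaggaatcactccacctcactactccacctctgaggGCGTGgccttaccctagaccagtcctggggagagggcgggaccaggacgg
Pgls: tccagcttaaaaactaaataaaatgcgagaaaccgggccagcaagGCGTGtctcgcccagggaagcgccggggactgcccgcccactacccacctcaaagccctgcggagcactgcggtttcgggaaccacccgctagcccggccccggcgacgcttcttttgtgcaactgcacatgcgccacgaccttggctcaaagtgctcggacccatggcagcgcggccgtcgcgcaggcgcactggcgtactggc

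The promoter of *Pgk1* held 2 ACGTG cores and those of *Hk3* and *Aldoa* 1 each, while *Pgd*, *Aldoc* and *Pgls* each held 1 GCGTG core. Promoters were matched for 31 of the 32 measured genes (not for *Slc2a3*), with 46 start sites among them. On both strands, ACGTG occurred in 41.3% of these 46 promoters and in 16.57% of all 32851 promoters, and GCGTG in 52.17% and 28.16%. By gene, ACGTG stood before 15 of the 31 matched genes and before 4998 of all 27025 genes. Among the 15 were 5 of the 8 that fell against both populations (*Aldoa*, *Hk3*, *Pgam1*, *Pgk1* and *Pkm*) and 1 of the 4 matched genes that rose (*Gpd2*). GCGTG stood before 21 of the 31 and before 8338 of all 27025. Among the 21 were 3 of the 8 that fell (*Ldhb*, *Pgam1* and *Pgd*) and 3 of the 4 that rose (*Aldoc*, *Pfkp* and *Pgls*). *Tpi1*, which also fell and is not shown, held neither core. The E-box CACGTG, which contains ACGTG, occurred in 10.87% of the pathway promoters and 6.021% of all promoters. GGGCGG, the GC box, occurred in 56.52% and 32.74%. GAGGAAGT, a PU.1 type site, stood in 2.174% against 2.441%, TTGCNNAA, a C/EBP type site, in 10.87% against 9.564%, and TGACNNNGC, an antioxidant response element, in 6.522% against 10.16%. The promoters compared were not matched for base composition or for the number of starts per gene. These are matches of letters in a short window and say nothing of binding in these cells.

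Glucose enters through facilitative transporters of the Slc2a family, and the 3 measured here behaved differently. *Slc2a3*, a high-affinity glucose transporter, read 6.18, 6.00 and 5.85 on the log2 scale in R1, 5.88, 5.94 and 5.90 in R2, and 7.42, 7.39 and 7.16 in R3. The R3 arrays lay above all R1 and R2 arrays, which overlapped each other. *Slc2a3* rose by 1.42 ± 0.10 (SE, n = 3 arrays per population) against R2, or 2.67-fold, with a limma adjusted p of 2.58e-05, and by 1.31 ± 0.10 against R1 (adjusted p = 3.15e-05). *Slc2a6*, a transporter of lysosomal membranes, read 9.38, 9.38 and 9.47 in R1, 9.02, 9.09 and 9.09 in R2, and 8.49, 8.82 and 8.97 in R3, so that the 3 populations formed a descending order without overlap. It fell by 0.65 ± 0.11 against R1 (adjusted p = 0.00417), while the differences of -0.31 from R2 (adjusted p = 0.153) and of -0.35 between R2 and R1 (adjusted p = 0.283) were not called. *Slc2a1*, the broadly expressed glucose transporter, had means of 8.84 ± 0.28 (SD), 8.64 ± 0.15 and 8.55 ± 0.29 in R1, R2 and R3, and its arrays overlapped in all comparisons. The call of *Slc2a6* against R1 was lost without the date of replicate 2 (adjusted p = 0.0887) and its difference from R2 was called without R3 replicate 3 (adjusted p = 0.0479), while *Slc2a3* was called in all 22 alternative settings in both comparisons.

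Hexokinases trap glucose in the cell by phosphorylation, and of the 3 isoenzyme genes only *Hk3* was called. *Hk3*, the isoenzyme typical of myeloid cells, read 7.92, 7.93 and 8.35 in R1, 8.31, 8.18 and 8.12 in R2, and 5.98, 5.91 and 5.71 in R3. The R1 and R2 arrays intermingled and all 3 R3 arrays lay far below them. *Hk3* fell by 2.34 ± 0.13 (SE) against R2, a 5.07-fold difference (adjusted p = 5.57e-06), and by 2.21 ± 0.13 against R1, a 4.62-fold difference (adjusted p = 5.54e-06), the widest step against R2 of any pathway gene. Both calls held in all 22 alternatives. *Hk2*, the inducible isoenzyme, had means of 8.78 ± 0.07, 8.66 ± 0.30 and 8.51 ± 0.16, with 95% intervals of -0.47 to 0.17 against R2 and -0.59 to 0.05 against R1. Its R3 arrays all lay below its R1 arrays, without a call. *Hk1*, the constitutive isoenzyme, was not called either, at 11.56 ± 0.04, 11.76 ± 0.08 and 11.66 ± 0.17. The *Hk1* probe set used rests on 1 accession that also occurs in 15 probe sets of several genes, and a second *Hk1* probe set, with 8 accessions, differed by -0.37 in R3 against R1 (adjusted p over all named probe sets = 0.145) where the first differed by 0.10, so that the direction differed between its probe sets.

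Phosphofructokinase commits sugar to glycolysis, and its platelet-type subunit gene *Pfkp* rose in R3. *Pfkp* read 8.88, 9.17 and 9.44 in R1, 9.30, 9.0 and 9.10 in R2, and 9.70, 9.76 and 10.03 in R3, so that every R3 array exceeded every monocyte array. The rise was 0.70 ± 0.15 against R2 (adjusted p = 0.0179) and 0.66 ± 0.15 against R1 (adjusted p = 0.0174), about 1.62-fold and 1.58-fold. The liver-type and muscle-type subunit genes were not called, with differences of -0.19 and -0.27 for *Pfkl* and 0.09 and -0.04 for *Pfkm* against R2 and R1. Without R1 replicate 1, *Pfkl* was called lower than in R1 (adjusted p = 0.0177). The call of *Pfkp* against R2 was lost without R2 replicate 2, R2 replicate 3 or R3 replicate 3 (adjusted p 0.0633 to 0.0783), and against R1 without R1 replicate 2 or R3 replicate 3 (adjusted p 0.0536 and 0.0604). It was also lost without the date of replicate 2 or 3 against R2 (0.235 and 0.114), and of replicate 1 or 2 against R1 (0.0674 and 0.167).

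The Pfkfb enzymes set the level of the sugar bisphosphate that activates phosphofructokinase, and the 3 genes measured did not move together. *Pfkfb3*, whose product strongly favors making the activator, read 7.73, 8.01 and 7.82 in R1, 7.50, 7.67 and 7.12 in R2, and 7.86, 8.24 and 8.21 in R3. The R2 arrays were the lowest, below all R1 and R3 arrays. *Pfkfb3* rose by 0.67 ± 0.16 in R3 against R2 (adjusted p = 0.0262) and differed by 0.25 from R1 (adjusted p = 0.398) and by -0.42 between R2 and R1 (adjusted p = 0.358). *Pfkfb2* read 6.64, 6.87 and 6.85 in R1, 6.41, 6.74 and 6.64 in R2, and 6.37, 6.25 and 6.37 in R3, and fell by 0.46 ± 0.10 against R1 (adjusted p = 0.0162). *Pfkfb4* read 8.02, 7.65 and 7.73 in R1, 7.52, 7.29 and 7.59 in R2, and 7.32, 7.25 and 7.52 in R3, and fell by 0.44 ± 0.12 against R1 (adjusted p = 0.0451). For both, the R3 arrays lay below all R1 arrays, and the R2 arrays of *Pfkfb4* did so too, with a difference of -0.33 that was not called (adjusted p = 0.352). These 3 calls rested on few arrays: leaving out 1 array ended that of *Pfkfb3* in 4 cases (R2 replicates 1 and 3, R3 replicates 2 and 3, adjusted p 0.0682 to 0.0918), that of *Pfkfb2* in 3 (R1 replicates 2 and 3, R3 replicate 2, 0.0552 to 0.0618) and that of *Pfkfb4* in 6 (R1 replicates 1 and 3, R2 replicates 1 and 3, R3 replicates 1 and 2, 0.0609 to 0.146). Of 22 alternatives in all, *Pfkfb3* was called in 13, *Pfkfb2* in 16 and *Pfkfb4* in 8, the last also being lost with quantile normalisation (adjusted p = 0.0505), array weights (0.0796), an intensity trend (0.055) and R3 and R1 alone (0.0898), by the methods' t-test after adjustment (0.245) and without any 1 date (0.103 to 0.298).

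Aldolase cuts the hexose into triose phosphates, and the genes of its isoenzymes changed in opposite directions. *Aldoa*, the ubiquitous isoenzyme, read 11.92, 12.21 and 12.36 in R1, 11.99, 12.00 and 12.22 in R2, and 10.87, 10.80 and 11.09 in R3. It fell by 1.15 ± 0.13 against R2 (2.22-fold, adjusted p = 0.000419) and by 1.24 ± 0.13 against R1 (2.37-fold, adjusted p = 0.00021). *Aldoc*, known as the brain isoenzyme, read 5.42, 5.97 and 6.42 in R1, 6.10, 6.31 and 6.51 in R2, and 7.39, 7.32 and 7.59 in R3. It rose by 1.13 ± 0.22 against R2 (2.19-fold, adjusted p = 0.0109) and by 1.5 ± 0.22 against R1 (2.83-fold, adjusted p = 0.00171). The R3 arrays did not overlap with the others for either gene, and the R1 arrays of *Aldoc* spread widely (SD 0.50, against 0.14 in R3). *Tpi1*, triose phosphate isomerase, read 10.06, 10.46 and 10.59 in R1, 10.42, 10.39 and 10.33 in R2, and 9.22, 9.50 and 9.50 in R3, and it fell by 0.98 ± 0.14 against R2 (adjusted p = 0.00158) and by 0.96 ± 0.14 against R1 (adjusted p = 0.00134). *Aldoa* was called in all 22 alternatives in both comparisons, the call of *Aldoc* against R2 was lost without R2 replicate 1 (adjusted p = 0.0538), and without the date of replicate 2 both calls of *Aldoc* (adjusted p = 0.166 against R2 and 0.0633 against R1) and of *Tpi1* (0.062 and 0.0563) were lost.

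In the lower, ATP-yielding steps, 3 of the 4 measured genes fell in R3, where 4.69% of all genes fell against R2 and 7.02% against R1. *Gapdh* and *Eno1*, also of these steps, were not analysed. *Pgk1*, phosphoglycerate kinase, read 11.11, 11.35 and 11.58 in R1, 11.31, 11.42 and 11.45 in R2, and 10.65, 10.71 and 10.94 in R3. *Pgam1*, phosphoglycerate mutase, read 10.58, 10.99 and 11.18 in R1, 11.07, 11.11 and 11.14 in R2, and 10.27, 10.10 and 10.55 in R3. *Pkm*, the pyruvate kinase of most tissues, read 11.46, 11.58 and 11.54 in R1, 11.63, 11.59 and 11.47 in R2, and 10.62, 10.70 and 10.95 in R3. In all 3 genes every R3 array was below every R1 and R2 array. The fall against R2 was 0.63 ± 0.12 for *Pgk1* (adjusted p = 0.0115), 0.80 ± 0.16 for *Pgam1* (adjusted p = 0.0107) and 0.80 ± 0.09 for *Pkm* (adjusted p = 0.000594). Against R1 it was 0.58 ± 0.12, 0.61 ± 0.16 and 0.77 ± 0.09 (adjusted p = 0.0132, 0.0299 and 0.000646). *Eno2*, the neuronal enolase, stayed near the dim end of the array in all populations, at 5.02 ± 0.11, 4.99 ± 0.13 and 5.03 ± 0.08.

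A second *Pkm* probe set fell by 0.82 against R2 (adjusted p over all named probe sets = 0.00461) and by 0.80 against R1 (0.00395), close to the first. Without the date of replicate 2 the calls against R2 of *Pgk1* (adjusted p = 0.222), *Pgam1* (0.201) and *Pkm* (0.0502) were lost. Without the date of replicate 1 those of *Pgk1* (0.054) and *Pgam1* (0.0588) against R2 were lost too. *Pgk1* also lost its call against R2 without R2 replicate 3 (adjusted p = 0.0537), and against R1 without R3 replicate 1 (0.0536) or the date of replicate 2 (0.205). *Pgam1* lost its call against R1 on leaving out any of 7 single arrays, all but R1 replicate 1 and R3 replicate 3 (adjusted p 0.0532 to 0.106). That call was also lost without any 1 date (0.0514 to 0.343), and it was made in 9 of 22 alternatives in all. Glycolytic enzyme genes have many processed copies in the mouse genome, and whether the probes also detect such copies was not tested.

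**Figure D3:**
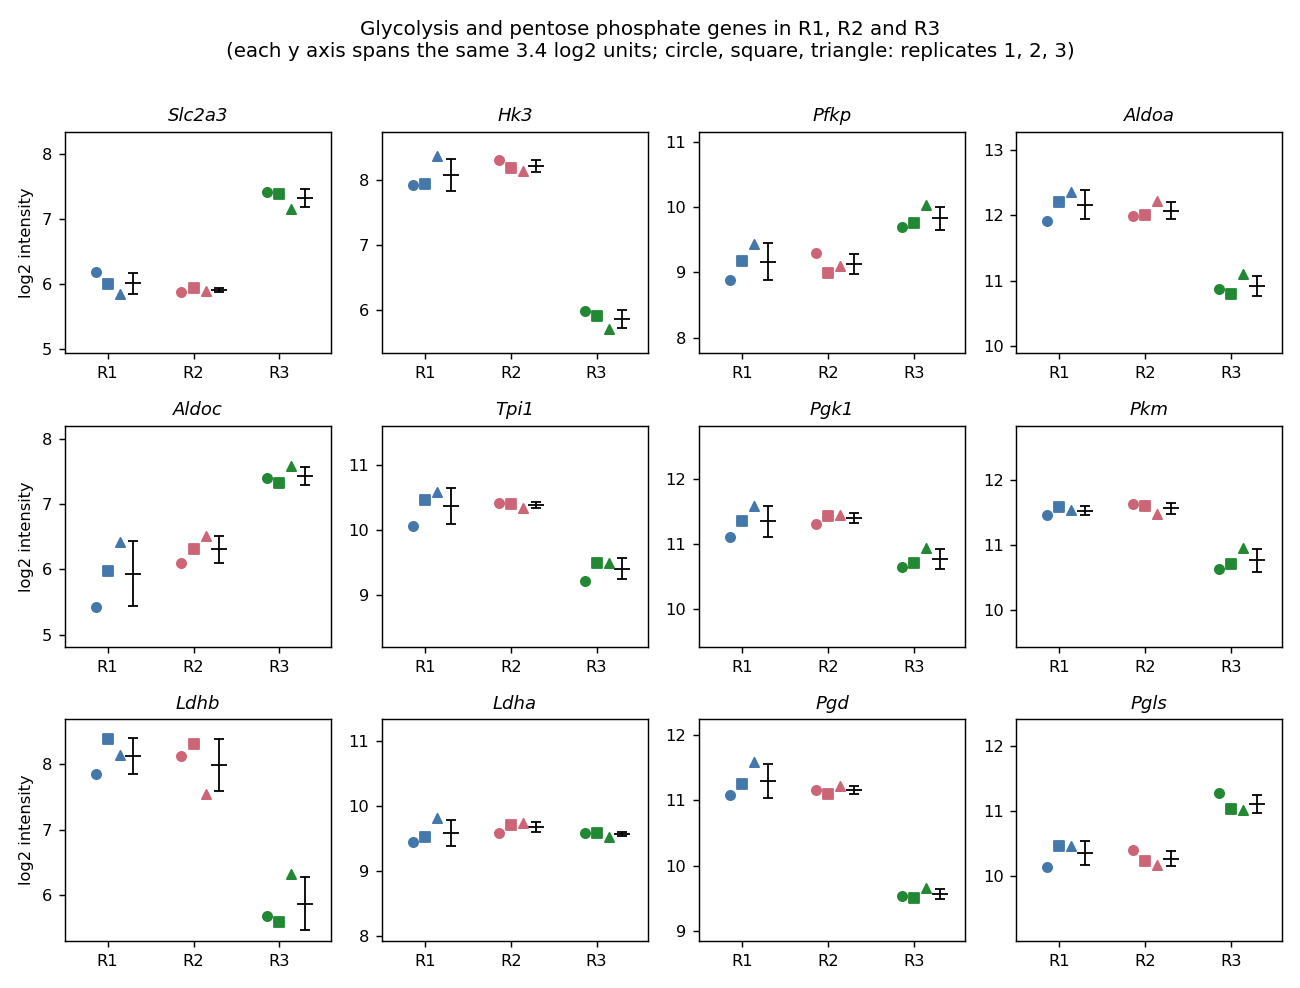
Log2 intensity of 12 pathway genes in R1, R2 and R3, with 1 point per array (circle, square and triangle for replicates 1, 2 and 3) and the mean ± SD in black at the right of each population; each axis spans the same number of log2 units, so heights can be compared across panels but levels between genes cannot. R3 lies apart from both monocyte populations in 11 panels, above them for *Slc2a3*, *Pfkp*, *Aldoc* and *Pgls* and below for the rest, while the 3 populations overlap for *Ldha*.

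Pyruvate leaves glycolysis toward lactate or the mitochondria, and here the lactate dehydrogenase genes separated. *Ldhb*, whose subunit favors turning lactate to pyruvate, read 7.85, 8.39 and 8.15 in R1, 8.13, 8.31 and 7.54 in R2, and 5.67, 5.59 and 6.32 in R3. It fell by 2.13 ± 0.25 against R2 (4.39-fold, adjusted p = 0.000549) and by 2.27 ± 0.25 against R1 (4.82-fold, adjusted p = 0.000294), with a gap of more than a log2 unit between the highest R3 array and the lowest other array. A second *Ldhb* probe set fell by 1.83 and 1.94. *Ldha*, whose subunit favors making lactate, read 9.44, 9.51 and 9.81 in R1, 9.58, 9.70 and 9.74 in R2, and 9.58, 9.58 and 9.53 in R3, which all overlapped. Its 95% intervals were -0.34 to 0.12 against R2 and -0.25 to 0.20 against R1, narrow beside the fall of *Ldhb*. Whether *Ldha* and *Ldhb* differed from each other in their response was not tested.

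*Gpd2*, the mitochondrial glycerophosphate dehydrogenase that carries electrons from cytosolic NADH, read 8.41, 8.68 and 8.70 in R1, 8.57, 8.58 and 8.41 in R2, and 9.0, 8.87 and 9.11 in R3. It rose by 0.47 ± 0.10 against R2 (adjusted p = 0.0169) and by 0.40 ± 0.10 against R1 (adjusted p = 0.0294), with the date as a block 0.0556 against R1. The call against R2 was lost without R2 replicate 3, R3 replicate 1 or R3 replicate 3 (adjusted p 0.056 to 0.0738), and against R1 without R1 replicate 1, R2 replicate 1, R3 replicate 1 or R3 replicate 3 (0.0501 to 0.0953). Without any 1 date both calls were lost (0.0759 to 0.2 against R2 and 0.11 to 0.191 against R1). *Gpd2* was called in 15 of 22 alternatives against R2 and in 11 against R1. *Slc16a3*, a lactate exporter, was lower in R3 on every array (8.66, 8.88 and 9.12 in R1, 8.68, 8.83 and 8.93 in R2, 8.30, 7.57 and 8.63 in R3), by 0.65 and 0.72 on average, without a call (adjusted p = 0.154 and 0.0876). Without R3 replicate 3 it was called in both comparisons (adjusted p = 0.0428 and 0.0243). *Slc16a1*, another monocarboxylate transporter, and *Pdk1* and *Pdk3*, kinases that hold back pyruvate dehydrogenase, were not called, with differences between -0.31 and 0.25 in R3. Without R3 replicate 2, *Pdk3* was called higher than in R2 (adjusted p = 0.0281).

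In the oxidative pentose phosphate branch the genes of both measured steps changed, in opposite directions. *Pgls*, the lactonase that acts just before *Pgd*, read 10.14, 10.46 and 10.45 in R1, 10.40, 10.23 and 10.17 in R2, and 11.27, 11.02 and 11.02 in R3. *Pgls* rose by 0.84 ± 0.12 against R2 (1.79-fold, adjusted p = 0.0015) and by 0.75 ± 0.12 against R1 (1.68-fold, adjusted p = 0.00217). *Pgd*, the phosphogluconate dehydrogenase that makes NADPH and ribulose phosphate, read 11.08, 11.25 and 11.58 in R1, 11.17, 11.10 and 11.23 in R2, and 9.53, 9.50 and 9.65 in R3. *Pgd* fell by 1.60 ± 0.12 against R2 (3.04-fold, adjusted p = 3.77e-05) and by 1.74 ± 0.12 against R1 (3.34-fold, adjusted p = 1.6e-05). The R3 arrays were clear of all others in both genes, and the fall of *Pgd* from R2 was nearly the same on each date (-1.64, -1.60 and -1.58). *Pgd* was called in all 22 alternatives in both comparisons, and the call of *Pgls* against R2 was lost without the date of replicate 2 (adjusted p = 0.0551).

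In the non-oxidative branch 1 of 4 genes was called, lower in R3 than in R1, where 7.02% of all genes fell. *Rpe*, the ribulose phosphate epimerase, read 8.18, 8.20 and 8.49 in R1, 8.24, 8.33 and 8.27 in R2, and 7.98, 7.92 and 7.97 in R3, with all R3 arrays below the others. It fell by 0.33 ± 0.09 against R1 (adjusted p = 0.0372, and 0.0541 with the date as a block) and differed by -0.32 ± 0.09 from R2 (adjusted p = 0.0541). The call against R1 was lost on leaving out any of 7 single arrays, all but R1 replicates 1 and 2 (adjusted p 0.0598 to 0.11), and it was made in 7 of 22 alternatives in all. The difference from R2 was called in 8 of 22 alternatives, among them those without R1 replicate 1 or R1 replicate 3 (adjusted p = 0.0399 and 0.0126), with quantile normalisation (0.0296), with array weights (0.0222), without dim genes (0.0457), with R3 and R2 alone (0.0127) and by the methods' t-test, adjusted (0.0244) or not. *Tkt*, transketolase, was at 10.96 ± 0.29, 11.02 ± 0.06 and 11.01 ± 0.16, with a 95% interval of -0.32 to 0.31 for R3 against R2. *Rpia*, which isomerizes ribose phosphate, differed by -0.25 and -0.21 in R3 with overlapping arrays.

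*Taldo1*, transaldolase, read 11.24, 11.46 and 11.41 in R1, 10.99, 11.05 and 11.004 in R2, and 11.22, 11.13 and 11.16 in R3. Its R2 arrays were the lowest of all 9, and R2 differed from R1 by -0.36 ± 0.07 (adjusted p = 0.0969). Its difference of -0.20 between R3 and R1 was called without R1 replicate 1 (adjusted p = 0.0224).

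Between R2 and R1 monocytes limma called no pathway gene at this array number: 0 of 32 rose and 0 fell, where 0.211% of all genes rose and 0.181% fell. At an unadjusted limma p under 0.05 there were 5 genes, and the lowest adjusted p was that of *Taldo1*. How many of all genes passed that unadjusted threshold was not counted for limma. The methods' t-test called 0 after Benjamini-Hochberg adjustment and 3 (*Hk1*, *Slc2a6* and *Taldo1*) without adjustment, and limma with array weights called *Taldo1* alone (adjusted p = 0.0195). The arrays of R2 and R1 did not overlap in 1 gene that was higher (*Hk1*) and 4 that were lower in R2 (*Slc2a6*, *Pfkfb3*, *Pfkfb4* and *Taldo1*), and over all genes this share was 13.4%. The second *Hk1* probe set went the other way in R2 against R1, by -0.27 where the first differed by 0.21 (limma adjusted p over all named probe sets = 0.583 and 0.474). All 32 intervals of R2 minus R1 lay within 1 log2 unit of 0, from -0.77 to 0.87, so differences as large as those of *Hk3* or *Ldhb* in R3 were outside them.

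Spread within a population was not even. R1 replicate 1 was the lowest R1 array for 27 of the 32 pathway genes, where it was the lowest for 40.2% of all genes, R1 replicate 3 was the highest R1 array for 19 (31.3% of all genes), and R3 replicate 3 was the highest R3 array for 19 (36% of all genes). The median SD of a pathway gene was 0.20 in R1, 0.09 in R2 and 0.15 in R3. The summed mitosis markers also varied within R1 (17735 on replicate 1, 20931 on replicate 2 and 24539 on replicate 3), while they were 28964 to 29693 in R2 and 29384 to 30965 in R3. Of 14 mitosis genes, 3 (*Mki67*, *Aurkb* and *Nusap1*) rose in R2 against R1, 8 rose in R3 against R1 and none was called in R3 against R2. The part of cell division in the pathway values was not tested.

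A further 91 genes next to these pathways were measured, of 97 listed in 4 groups. In R3 against R2, 5 of the 91 rose and 12 fell, in R3 against R1, 7 rose and 12 fell, and in R2 against R1 none was called by limma (12 had an unadjusted p under 0.05). The share of all genes at that unadjusted threshold was not counted. The shares that rose, 5.49% and 7.69%, were near those of all genes (4.85% and 6.49%). In each comparison 13.2% fell, where 4.69% and 7.02% of all genes fell. Among the brighter 9969 genes 8.72% fell against R2 and 13% against R1, the latter near the share of these 91. How many of the 91 are that bright was not counted. In the glycogen and gluconeogenesis group, 5 of 21 genes (23.8%) fell against R2, and 5 fell and 1 rose against R1. *Pygl*, the glycogen phosphorylase of liver and myeloid cells, had means of 10.62 ± 0.18 (SD), 10.17 ± 0.01 and 7.91 ± 0.32 in R1, R2 and R3, and it fell by 2.26 ± 0.15 (SE) against R2 (adjusted p = 1.8e-05) and fell by 2.71 ± 0.15 against R1 (adjusted p = 4.67e-06). *Gyg*, glycogenin, which primes glycogen, fell by 1.5 ± 0.22 and 1.76 ± 0.22 (adjusted p = 0.00257 and 0.000766). *Ugp2* and *Pgm2*, which handle glucose phosphate on its way to and from glycogen, fell by 0.55 and 0.35 against R2 and by 0.84 and 0.57 against R1. The phosphorylase kinase subunit genes split, as *Phka2* fell against R2 by 0.37 (adjusted p = 0.0326) and *Phkb* rose against R1 by 0.63 (adjusted p = 0.0308).

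Among the other sugar transport and enzyme genes, 1 of 31 rose and 4 fell against R2 (3.23% and 12.9%), and 2 rose and 4 fell against R1 (6.45% and 12.9%), so that the share that rose was at or below that of all genes. The 12.9% that fell against R1 was near the 13% of the brighter genes. *H6pd*, which runs the first oxidative pentose phosphate steps inside the endoplasmic reticulum, fell by 0.92 ± 0.16 against R2 (adjusted p = 0.00701) and by 1.21 ± 0.16 against R1 (0.00111). *Rbks*, ribokinase, fell by 0.82 and 1.09, *Slc16a6*, a monocarboxylate transporter family gene, by 1.22 and 0.83, and *Slc2a9*, a urate transporter of the glucose transporter family, by 0.57 and 0.76. *Eno3*, the muscle enolase, rose by 0.78 against R2 (adjusted p = 0.0296) and by 0.67 against R1 (0.0443), and *Prps2*, which makes the activated ribose for nucleotides, rose by 0.54 against R1 (0.0464). At the entry of pyruvate into the mitochondria 1 of 14 genes rose and 1 fell in each comparison (7.14% each way), near the shares of all genes. *Dld*, a subunit of pyruvate dehydrogenase, fell by 0.38 in both comparisons, and *Pdpr*, a regulator of its phosphatase, rose by 0.65 and 0.47.

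Of 25 regulators of sugar metabolism, 3 rose and 2 fell in R3 in each comparison (12% and 8%), and the share that fell against R1 was near the 7.02% of all genes. Among the brighter 9969 genes 11.7% rose against R1, near the 12% of the regulators. *Myc*, a transcription factor that acts on many glycolytic genes, had means of 9.10 ± 0.19, 9.23 ± 0.12 and 10.29 ± 0.16 in R1, R2 and R3, and it rose by 1.05 ± 0.12 against R2 (adjusted p = 0.000493) and by 1.18 ± 0.12 against R1 (adjusted p = 0.000192). *Vhl*, which marks hypoxia-inducible factors for breakdown, rose by 0.79 and 0.65, and *Hif1an*, which blocks their activity, rose by 0.68 against R2 (adjusted p = 0.0263). *Hif1a* itself was not called (differences of -0.09 and -0.44). *Nfe2l2*, a factor known to act on pentose phosphate genes, fell by 0.60 and 0.89, *Mlx*, a partner of the glucose-sensing Mondo factors, fell by 0.49 and 0.62, and *Mtor*, the growth kinase, rose by 0.41 against R1 (adjusted p = 0.0414).

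**Figure D4:**
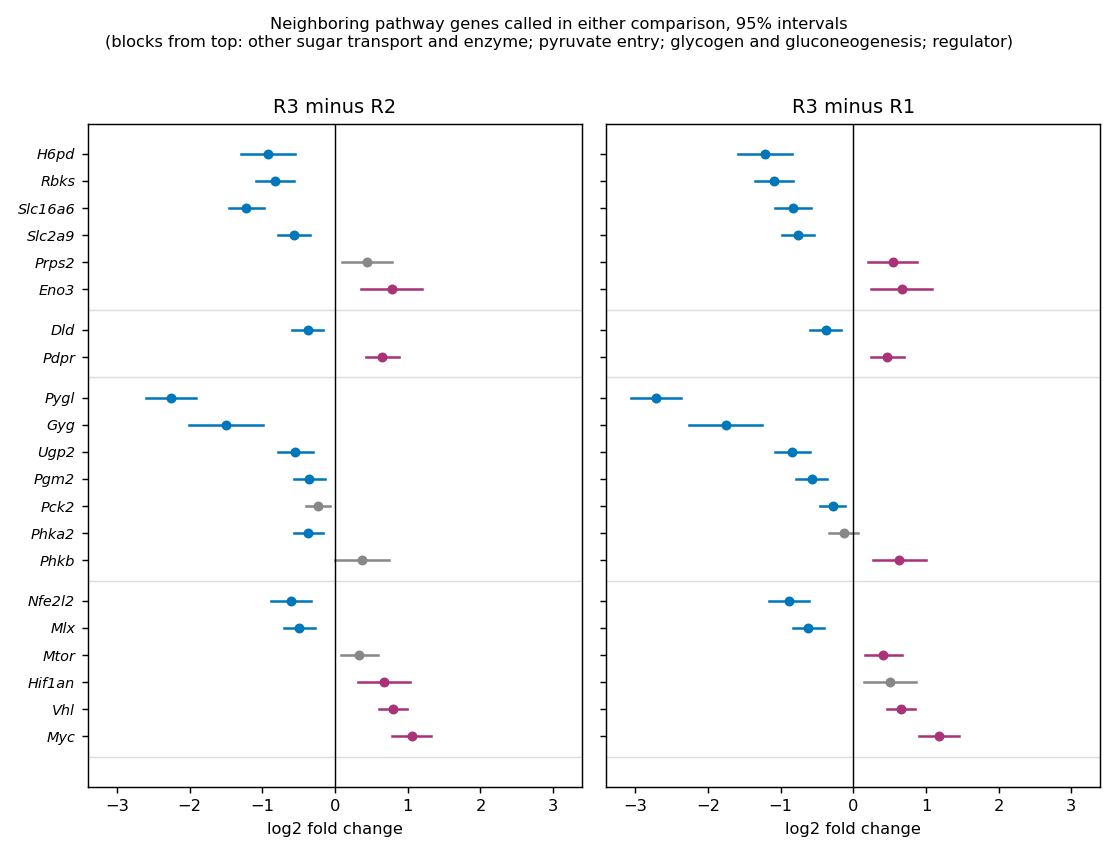
Log2 fold changes (points) with 95% intervals (lines) of the neighboring pathway genes called in R3 minus R2 or in R3 minus R1, in blocks from top to bottom for sugar transport and enzymes, pyruvate entry, glycogen and gluconeogenesis, and regulators; blue fell, purple rose and gray was not called in that comparison. *Pygl* and *Gyg* lie farthest to the left in both panels and *Myc* farthest to the right.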

How the data were processed

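RNA from 9 sorted samples (3 populations, 3 arrays each, 1 ng of RNA amplified per array) was measured on Mouse Gene 1.0 ST arrays (Affymetrix). The deposited values are linear intensity per probe set, 1 column per array, made by the authors. The summarisation and normalisation behind them are not given in the sources used here, and no raw scans were used. Of 34760 probe sets, 21640 named 1 gene, 1321 several and 11799 none. The brightest probe set that names a gene alone stood for that gene, which left 19937 genes, and no current symbol differed from the annotation's for the 21553 probe sets matched by gene identifier. Log2 of the deposited intensity was tested with limma 3.58.1 in R 4.3.3 (lmFit and eBayes, 9 arrays in 1 model, 6 residual degrees of freedom, no block), with Benjamini-Hochberg adjustment over all genes. The number of arrays limits the precision, and the median half-width of a 95% interval of a pathway gene was 0.28 log2 units.

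Groups came from the labels. The replicate number is the date in the titles, which samples of different populations share, so the numbers pair the samples. Deviations of same-date arrays from their population means correlated between -0.024 and 0.152, with 4 of 9 pairs over 0.1. A fit with the date as a block was therefore run beside the unblocked one.

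The pathway genes, the neighboring gene lists and the marker lists were chosen with earlier results of these data known. Named genes were every pathway gene, with array values for those called in at least 1 comparison, and from each neighboring list at most the 6 called genes with the greatest change, and any marker. Outside that rule, *Taldo1*, *Ldha*, *Slc16a3* and *Hif1a* are given with values chosen after they were seen. The alternatives were the methods' t-test, the date as a block, arrays centred on their median, quantile normalisation, leaving out dim genes, the mean of all probe sets of a gene, array weights, an intensity trend, a fit of only 2 populations, and leaving out each date and each array. The fit was also run on simulated data with known changes, independent noise and no date effect. That run does not test the calls reported here.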

Additional observations from a re-analysis of the deposited data

How the results depend on the processing

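Calls kept their direction in all 22 alternatives. *Slc2a3*, *Hk3*, *Aldoa* and *Pgd* stayed called against both monocyte populations, and *Ldhb* against R1, while the other calls were lost in at least 1 alternative. With the replicate block (the date), 6 pathway genes rose and 8 fell in R3 against R2, 4 rose and 11 fell against R1 (*Gpd2* and *Rpe* were lost), none was called in R2 against R1, and the genes called in R2 against R1 went from 78 to 23. It changed no other call of a pathway gene. The methods' t-test with Benjamini-Hochberg adjustment called 893 genes in R3 against R2 (limma 1903), 658 in R3 against R1 (2693) and 1 in R2 against R1. It called 3 pathway genes higher and 6 lower in R3 against R2, 1 higher and 4 lower against R1, and 7 and 3 neighboring genes (limma 17 and 19). Without adjustment it called 3460 genes in R3 against R2 and 1488 in R2 against R1, there with 1 pathway gene higher, 2 lower and 5 neighboring genes. In R2 against R1, centring called 20 genes, array weights 343 (1 pathway gene lower), the intensity trend 46 and a fit of those 2 populations 1. A fit of R3 and R1 alone left 3 pathway genes higher. The cause of these shifts was not tested.

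Leaving out arrays or dates gave 757 to 2183 called genes in R3 against R2, 1117 to 2843 against R1 and 0 to 124 in R2 against R1. Pathway genes higher were 1 to 6 and 2 to 5, and lower 4 to 10 and 5 to 13, for R3 against R2 and R1, and 0 in R2 against R1. Neighboring genes called were 8 to 20 and 10 to 21, and 0 in R2 against R1. The lowest counts came without the date of replicate 2, with 1 gene higher and 4 lower against R2 and 2 and 5 against R1. Without R3 replicate 3, 3 rose against each population, and without R2 replicate 3, 3 rose against R2. Without the dates of replicates 3 and 1, 3 rose against R2 and R1, respectively. Leaving out a date removes 3 of 9 arrays and with them residual degrees of freedom. With 3 arrays per population, small differences remain undetected.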
